A study of Harpegnathos saltator with 36 samples.

Results

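Ins (LOC105188195) and IGF (LOC105186969), the insulin ligand and the insulin-like growth factor ligand of the ant Harpegnathos saltator, were followed through the brain and the ovary of 3 castes. These 2 genes were chosen by their identifiers from the 12654 genes of the count tables, and both were found in the tables of both tissues. Each library was made from 1 tissue of 1 ant, either the whole ovary or the central brain after removal of the optic lobes, with 4 gamergates, 4 revertants and 4 workers per tissue and 24 libraries in all. Gamergates are workers that began to duel and lay eggs in a colony without a reproductive female. Revertants are former gamergates that were kept alone, then moved to an established colony and policed there until they lost reproduction. Workers are non-reproductive nestmates of the gamergates. No ant of these libraries carried an altered gene or received a compound, and all were taken at about 6 months. Workers and gamergates came from the transition colony and revertants from a reversion colony, so colony and caste cannot be told apart in any comparison with revertants. Whether the brain and the ovary with the same number came from one ant was not clear from the labels.

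Insulin-like peptides are secreted hormones that bind receptor tyrosine kinases on other cells. The receptor passes the signal on through PI3K and AKT, which keep the transcription factor FOXO out of the nucleus, and through Ras, Raf and MAPK. In Drosophila, insulin-like peptides of the brain come mainly from a small cluster of neurosecretory cells, the insulin-producing cells, and an IGF-like peptide, Dilp6, is made largely by the fat body. The secreted protein Imp-L2 binds insulin-like peptides in Drosophila, and ALS, the acid-labile subunit, joins such complexes. The question put to the data is which tissue carries which ligand, and how both change when a worker becomes a gamergate and when a gamergate reverts.

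The name IGF stands here for the transcript against which the study made its in situ hybridization probe, and the pair of primers for that probe is shown because these are the designed sequences that identify the member.
IGF forward probe primer, 5′ to 3′: gagaagcaggatgaatcg
IGF reverse probe primer, 5′ to 3′: aaatagagctccaatgtttttc
The forward primer has 18 bases, 9 of them G or C, and the reverse primer has 22 bases, 7 of them G or C. The RefSeq gene table of assembly Hsal_v8.6 lists Ins under the symbol ILP-2 and gives IGF no symbol beyond its identifier. The authors aligned to another release of the genome, so no coordinates are given.

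Ovary libraries had total counts of 1663266 to 23882325, and brain libraries of 1339043 to 12917125. In the brain, all 4 gamergate libraries had fewer than 3500000 counts, all 4 revertant libraries had more, and workers had 2 of each. In the ovary, all 4 gamergate libraries, 2 revertant and 1 worker library were above this limit. The tissues carried their own markers. The 7 neuronal markers summed to 96.4 to 240.2 CPM (reads scaled to 1000000 reads of the library) in the ovaries and 3177 to 4684 CPM in the brains, and the 7 markers of germline and egg chambers to 1350 to 3232 CPM in the ovaries and 177 to 257 CPM in the brains. Levels below are log2 CPM, scaled over all 24 libraries by the TMM method of edgeR with a prior count of 2, and the 95% intervals on single libraries are exact Poisson intervals that cover counting error only. Tissue and sequencing lane cannot be told apart, and in whole tissues fewer cells of a type and less RNA per cell cannot be told apart either.

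Ins was a brain transcript in every caste. In the ovary its level was 1.17 ± 0.29 log2 CPM in gamergates, 0.61 ± 0.58 in revertants and 0.40 ± 0.63 in workers, and in the brain it was 5.27 ± 0.25 in gamergates, 4.09 ± 0.72 in revertants and 3.66 ± 0.33 in workers (SD, n = 4 each). Within a caste, the lowest brain library lay above the highest ovary library. The log2 fold change of ovary over brain was −4.28 in gamergates (standard error, SE, 0.35), −4.04 in revertants (SE 0.40) and −3.60 in workers (SE 0.41). Each passed the threshold of 0.05 with adjusted p of 3.0e-10, 1.1e-08 and 1.1e-07 in the quasi-likelihood test of edgeR, adjusted by Benjamini and Hochberg's method over all genes. Most genes differ between these organs. Of 10127 genes tested, 77.3% passed in gamergates, 68.2% in revertants and 65.9% in workers.

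IGF had no such fixed place. In the ovary its level was 8.33 ± 0.16 log2 CPM in gamergates, 4.00 ± 1.01 in revertants and 3.93 ± 0.60 in workers, and in the brain it was 0.79 ± 1.55 in gamergates, 4.20 ± 0.82 in revertants and 3.66 ± 0.92 in workers (SD, n = 4 each). In gamergates the ovary exceeded the brain by 7.33 on the log2 scale (SE 0.65, adjusted p = 1.2e-09 in the quasi-likelihood test). In revertants the difference of ovary over brain was −0.089 (SE 0.45, adjusted p = 0.874) and in workers it was 0.17 (SE 0.49, adjusted p = 0.769), both in the same test and both smaller than the spread between libraries. The ranges of the tissues overlapped in revertants and in workers. IGF reads were therefore counted in the brain and the ovary of both non-reproductive castes at levels that these libraries did not separate.

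**Figure D1:**
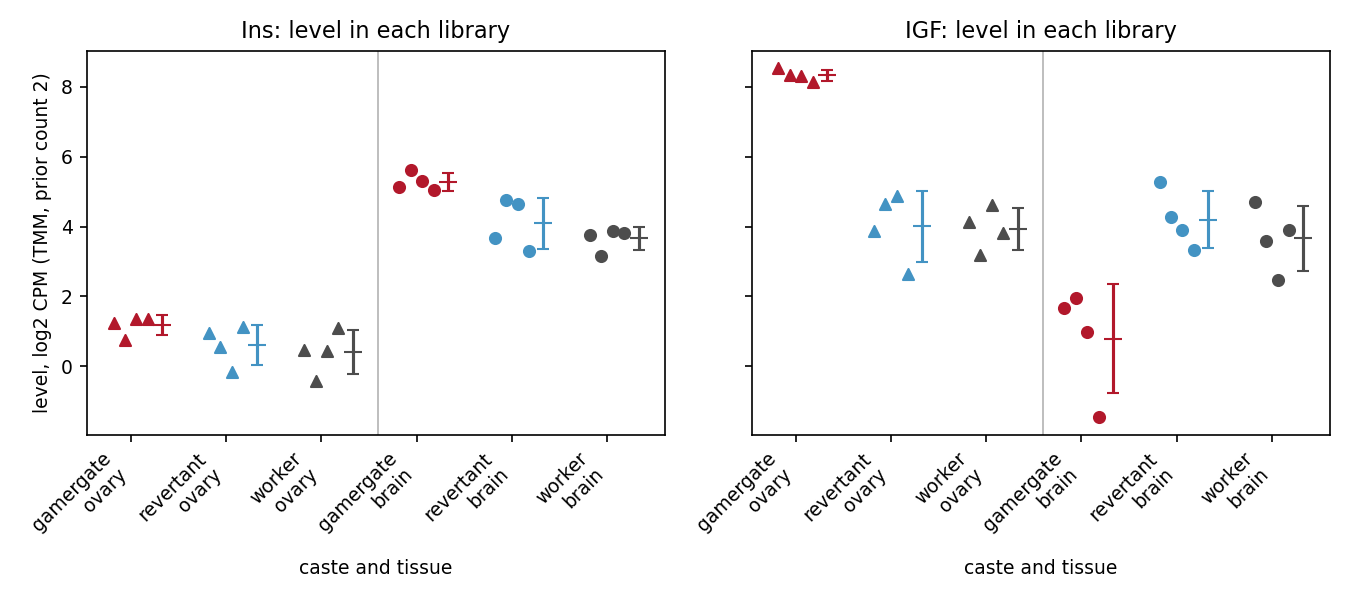
Level of Ins (left panel) and IGF (right panel) in each of the 24 libraries, in log2 CPM, by caste and tissue, with ovaries as triangles and brains as circles. The bar beside each group is the mean ± SD of 4 libraries. All Ins values in the ovary lie below all Ins values in the brain, and IGF reaches 8.33 ± 0.16 in gamergate ovaries and 0.79 ± 1.55 in gamergate brains.

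Ordered by mean level, Ins stood highest in gamergate brains, then in revertant brains, worker brains, gamergate ovaries, revertant ovaries and worker ovaries. In this order gamergate and revertant brains differed in the tests below, revertant and worker brains did not, and the ranges of worker brains (3.17 to 3.88 log2 CPM) and gamergate ovaries (0.75 to 1.36) did not overlap. The neighbours among the ovaries did not differ beyond their spread. IGF stood highest in gamergate ovaries, then in revertant brains, revertant ovaries, worker ovaries, worker brains and gamergate brains. The 4 groups in the middle of this order had means between 3.66 and 4.20 log2 CPM and no neighbouring pair among them differed beyond its spread, whereas gamergates held both ends.

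In the brain, Ins reads amounted to 35.1, 49.98, 40.02 and 31.9 CPM in the 4 gamergate libraries, 10.9, 24.1, 23.4 and 8.75 CPM in the revertants and 12.2, 9.22, 13.4 and 14.9 CPM in the workers. Every gamergate brain was above every brain of the other castes. The 95% interval of the lowest gamergate library, 24.1 to 41.5 CPM, also lay above that of the highest worker library, 9.12 to 23.1 CPM. The log2 fold change of gamergates over workers was 1.58 (SE 0.21, adjusted p = 0.00642 from the quasi-likelihood test, two-sided exact permutation p = 0.0286, which 4 against 4 libraries cannot go below). Of the 8481 genes tested in this comparison, 1.05% passed, and 1576 had an unadjusted p under 0.05 in edgeR. That share was unstable, since the 89 genes called became 24 to 850 with a library left out. Relative to revertants the log2 fold change of Ins was 1.01 (SE 0.30, adjusted p = 0.0133 in the quasi-likelihood test), where 57.4% of 8987 genes passed.

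Revertant brains fell apart in Ins beyond counting error. Libraries 2 and 3 had intervals of 21.5 to 26.9 and 19.9 to 27.4 CPM, and libraries 1 and 4 had 8.55 to 13.7 and 6.13 to 12.1 CPM. In CPM, library 1 lay in the range of the workers, library 4 just under it, and libraries 2 and 3 between workers and gamergates. On the scaled log2 level, library 4 was at 3.30, inside the range of the workers (3.17 to 3.88). Revertants over workers gave a log2 fold change of 0.54 (SE 0.34, adjusted p = 0.378 in the quasi-likelihood test). In that comparison 0% of 9360 genes passed in edgeR, while 1521 had an unadjusted p under 0.05 and DESeq2 called 58. When the size class of the library was added to a fit of the 12 brain libraries, neither difference of Ins in gamergates passed the threshold. It was 1.79 over workers (adjusted p = 0.0501 in the quasi-likelihood test) and 1.35 over revertants (adjusted p = 0.261). All 4 gamergate brains were under 3500000 counts and all 4 revertant brains above. The size term therefore rested on the worker brains alone, and between gamergates and revertants library size and caste cannot be told apart. Over workers, the 6 libraries under 3500000 counts, of which gamergates gave 4, had a value of 1.79 past the threshold (adjusted p = 0.00251).

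IGF was lower in every gamergate brain than in any brain of the other castes. Gamergate brains held 5, 6, 3 and 0 IGF reads, against 228, 223, 92 and 37 reads in revertant brains and 116, 19, 19 and 21 reads in worker brains. As shares of the library this was 2.83, 3.61, 1.67 and 0 CPM in gamergates, 34.1, 17.3, 13.7 and 8.99 CPM in revertants and 23.5, 12.5, 4.80 and 15.7 CPM in workers. The highest gamergate brain, library 2, at 3.61 CPM with an interval of 1.33 to 7.86, was close to the lowest worker brain. That worker brain had 4.80 CPM with an interval of 2.89 to 7.496. The intervals of gamergate libraries 1 (0.919 to 6.60) and 3 (0.344 to 4.87) also overlapped it. Revertant library 4 (6.33 to 12.4) overlapped gamergate libraries 1 and 2, and worker library 2 (7.54 to 19.6) overlapped gamergate library 2. In the gamergate library with no read, the limit that a count of 0 allows, taken as 3 reads, is 1.71 CPM. At the pooled level of the workers, gamergate libraries of their depth would have held 24.7 to 26.8 IGF reads each. Over the pooled reads, IGF was 2.01 CPM in gamergates and 14.9 CPM in workers, a ratio of 0.135 (95% interval 0.0721 to 0.232, counting error only).

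Relative to revertants, the log2 fold change of IGF in gamergate brains was −3.38 (SE 0.62, adjusted p = 8.5e-04 in the quasi-likelihood test). Relative to workers, IGF had too few reads to pass edgeR's filter on low counts in the fit of these 8 libraries. The difference of mean levels was −2.87 log2 CPM (two-sided exact permutation p = 0.0286, which 4 against 4 libraries cannot go below). Without the filter, the quasi-likelihood test gave −2.84 (SE 0.65, adjusted p = 0.0703), not past the threshold, and in one fit of all 3 castes it gave −2.87 (adjusted p = 0.0457). Among the 6 brain libraries under 3500000 counts it was −2.68 (adjusted p = 0.0176). With the size class in the fit the values were −2.70 over workers (adjusted p = 0.128) and −3.09 over revertants (adjusted p = 0.189). As for Ins, library size and caste cannot be told apart between gamergate and revertant brains. Without the gamergate library that had no read, the difference from workers was −2.12 log2 CPM. Revertant and worker brains differed in IGF by 0.49 (SE 0.51, adjusted p = 0.556 in the quasi-likelihood test), which is within the spread between libraries.

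Some tissue markers moved with caste in the brain. The 11 fat body markers summed to 33760 to 87187 CPM in gamergate brains, 15423 to 20000.4 CPM in revertant brains and 16312 to 20714 CPM in worker brains, and each of the 11 had reads in some library of every caste. Of the 8 that were tested in gamergates over workers, 2 rose and 0 fell, beside 1.05% of all genes: vitellogenin, the egg yolk precursor, with a log2 fold change of 4.75, and the storage protein Hex70a with 8.97. The median of the 8 was 0.042 beside −0.0043 over all genes tested. Vitellogenin had 14.8 log2 CPM in gamergate and 9.64 in worker brains, whereas the apolipophorin gene apolpp had 14.2 and 14.0. Relative to revertants 3 of 9 rose and 3 fell, beside 57.4% of all genes. The 7 neuronal markers summed to 3177 to 3641 CPM in gamergate brains, 3999.7 to 4684 CPM in revertant brains and 3647 to 4438 CPM in worker brains, and 0 of 7 passed in gamergates over workers in edgeR, with 2 at an unadjusted p under 0.05 and 1 called by DESeq2. Over all genes tested in gamergates over workers, 1576 of 8481 had an unadjusted p under 0.05 in edgeR. Relative to revertants all 7 neuronal markers fell, with a median log2 fold change of −0.48 beside 0.0049 over all genes tested. The part of these markers in the Ins and IGF values was not tested.

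**Figure D2:**
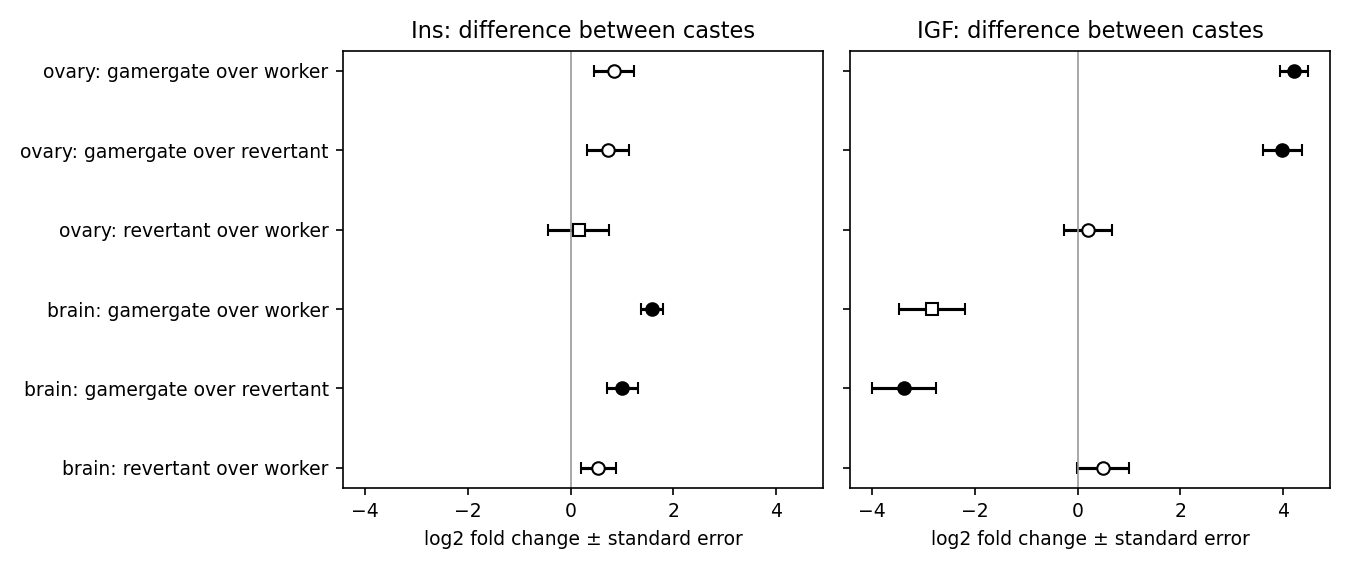
Log2 fold change ± standard error of Ins (left panel) and IGF (right panel) between castes in ovary and brain. Filled circles passed an adjusted p of 0.05 in edgeR's quasi-likelihood test and open circles did not. Open squares are genes left out by the filter on low counts, plotted from the fit without it, where neither passed. IGF is at 4.22 in the ovary and −2.84 in the brain for gamergates over workers.

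In the ovary, IGF set gamergates apart more than any spread between libraries. Gamergate ovaries held 320.04, 320.5, 283 and 263 CPM, revertant ovaries 16.2, 24.4, 29.6 and 6.23 CPM and worker ovaries 19.9, 9.91, 22.3 and 16.6 CPM. The lowest gamergate library was above the highest of the other castes, and the gamergate values were also the most alike, with an SD of 0.16 log2 CPM against 1.01 in revertants and 0.60 in workers. The log2 fold change was 4.22 over workers (SE 0.27, adjusted p = 1.6e-05 in the quasi-likelihood test) and 3.99 over revertants (SE 0.38, adjusted p = 8.2e-05). In these comparisons 58.3% of 9267 genes and 57.8% of 9228 genes passed. With the size class in the fit the values were 3.53 and 3.66, both past the threshold. Pooled over reads, IGF was 15.2 times as abundant in gamergate as in worker ovaries (95% interval 13.6 to 17.2, counting error only).

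Among revertant ovaries IGF covered a wide range. Library 4 had 13 reads, or 6.23 CPM with an interval of 3.32 to 10.7, and library 3 had 167 reads, or 29.6 CPM with an interval of 25.3 to 34.5. Their mean level still lay close to that of the workers. For revertants over workers the log2 fold change was 0.21 (SE 0.46, adjusted p = 1.00 in the quasi-likelihood test). In this comparison 0% of 8667 genes passed in edgeR, with 377 at an unadjusted p under 0.05, and DESeq2 called 29.

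Ins was near the limit of counting in the ovary. Gamergate ovaries held 27, 7, 47 and 27 Ins reads, revertant ovaries 3, 8, 3 and 4 reads and worker ovaries 4, 1, 7 and 4 reads. As shares of the library these were 1.71, 1.31, 1.97 and 2.04 CPM in gamergates, 1.80, 1.08, 0.532 and 1.92 CPM in revertants and 1.19, 0.431, 0.931 and 2.15 CPM in workers, so that the castes overlapped. In gamergates the log2 fold change was 0.85 over workers (SE 0.38, adjusted p = 0.0854 in the quasi-likelihood test) and 0.72 over revertants (SE 0.41, adjusted p = 0.158), neither past the threshold. Without worker library 4, the value over workers was 1.11 and past the threshold (adjusted p = 0.0427). Revertants and workers, left out by the filter on low counts, had a difference of 0.21 log2 CPM (two-sided exact permutation p = 0.571). Over the pooled reads the ratio of revertants to workers was 1.01, with a 95% interval of 0.486 to 2.12 for counting error only. The pooled ratio of gamergates was 1.74 to workers (1.03 to 3.16) and 1.73 to revertants (1.04 to 3.02). These intervals lay above 1, but they leave out the spread between ants.

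Ovaries also differed between castes in the markers of other tissues. The 8 muscle markers summed to 191 to 272 CPM in gamergate ovaries, 416 to 2011 CPM in revertant ovaries and 390 to 4357 CPM in worker ovaries, and 7 of 8 fell in gamergates relative to workers, beside 58.3% of all genes that passed in either direction. The 7 germline and egg chamber markers summed to 2247 to 2732 CPM in gamergates, 1350 to 3232 CPM in revertants and 1721 to 2990 CPM in workers, and each had reads in some ovary of every caste. Of the 5 that were tested in gamergates over workers, 1 rose and 1 fell, a share under that of all genes. The 11 fat body markers summed to 2097 to 4337 CPM in gamergates, 1015 to 11921 CPM in revertants and 926 to 5786 CPM in workers, and of the 10 tested 2 rose and 2 fell, also under the share of all genes. The part of these markers in the IGF value was not tested.

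The effect of caste on IGF differed between the tissues in the test of that difference itself. The log2 fold change of gamergates over workers was 7.16 higher in the ovary than in the brain (SE 0.82, adjusted p = 3.3e-06 for the interaction in the joint quasi-likelihood fit of 24 libraries), and that of gamergates over revertants was 7.42 higher (SE 0.80, adjusted p = 1.0e-06). Such interactions passed for 34.5% and 35.5% of the 10127 genes. For Ins they were −0.68 (SE 0.55, adjusted p = 0.361) and −0.24 (SE 0.56, adjusted p = 0.901), not past the threshold in the same test. The joint fit thus did not separate the effect of caste on Ins in the brain from that in the ovary. For revertants over workers the interactions were −0.26 for IGF (SE 0.66, adjusted p = 0.930) and −0.44 for Ins (SE 0.60, adjusted p = 0.830), and 0% of genes passed in edgeR, with 1037 at an unadjusted p under 0.05 and 33 called by DESeq2.

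**Figure D3:**
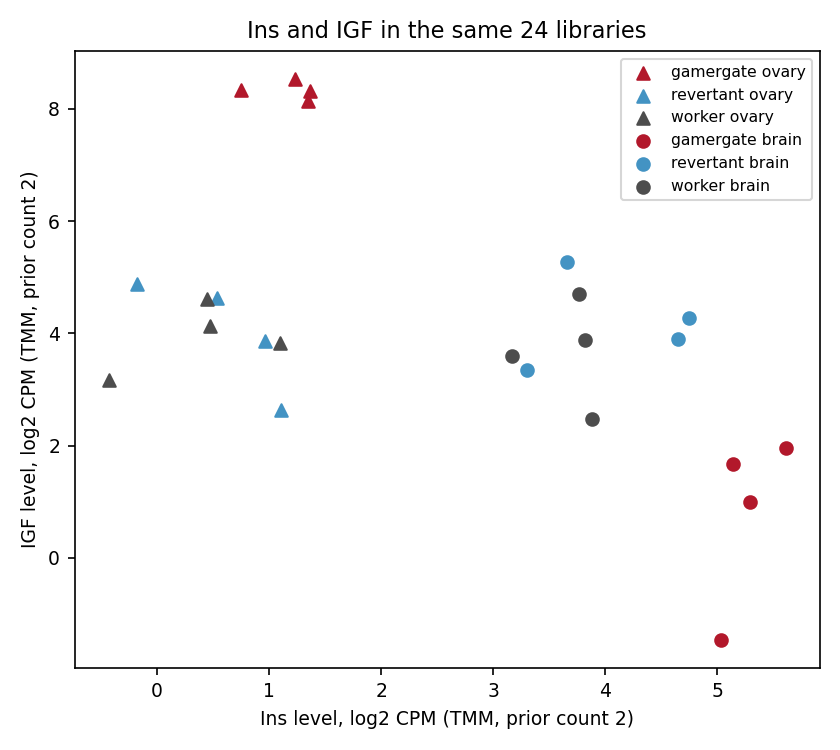
Level of IGF against level of Ins in the same 24 libraries, both in log2 CPM, with ovaries as triangles, brains as circles and castes by colour. Gamergate ovaries form the upper left group and gamergate brains the lower right group, with revertants and workers of both tissues between 2.47 and 5.27 log2 CPM of IGF.

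The balance of the ligands was read within each library as log2 of (Ins reads + 0.5)/(IGF reads + 0.5), which needs no scaling between libraries. A ratio of reads does not compare the number of molecules, since the lengths of the transcripts were not used, but they cancel in the differences between groups. In the brain it was 3.51, 3.68, 4.37 and 6.82 in gamergates, −1.64, 0.48, 0.77 and −0.04 in revertants and −0.95, −0.43, 1.46 and −0.07 in workers. The 6.82 came from 56 Ins reads and 0 IGF reads, so its size was set by the added 0.5. Ins reads outnumbered IGF reads in all 4 gamergate brains, by 62 to 5 in the closest case, whereas the other brains lay on both sides of equal numbers. The difference was 4.59 from workers and 4.70 from revertants (two-sided exact permutation p = 0.0286 each, adjusted p = 0.0429 over 9 comparisons). It ranged from 3.85 to 5.08 from workers with each library left out.

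In the ovary the log2 ratio was −7.52, −7.84, −7.15 and −6.99 in gamergates, −2.97, −4.41, −5.58 and −1.58 in revertants and −3.91, −3.97, −4.49 and −2.81 in workers. IGF reads outnumbered Ins reads in all 12 ovaries. Gamergates were lower than workers by −3.58 and than revertants by −3.74 (two-sided exact permutation p = 0.0286 each, adjusted p = 0.0429). Relative to workers the gamergate ratio therefore lay toward Ins in the brain and toward IGF in the ovary, with no overlap between the castes in either tissue. Revertants and workers overlapped in both tissues, with differences of −0.11 in the brain (two-sided exact permutation p = 0.914) and 0.16 in the ovary (two-sided exact permutation p = 0.943). Between ovary and brain the log2 ratio differed by −11.97 in gamergates, −3.80 in workers (two-sided exact permutation p = 0.0286 each, adjusted p = 0.0429) and −3.53 in revertants (two-sided exact permutation p = 0.0571, adjusted p = 0.0735), where 1 pair of values overlapped.

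**Figure D4:**
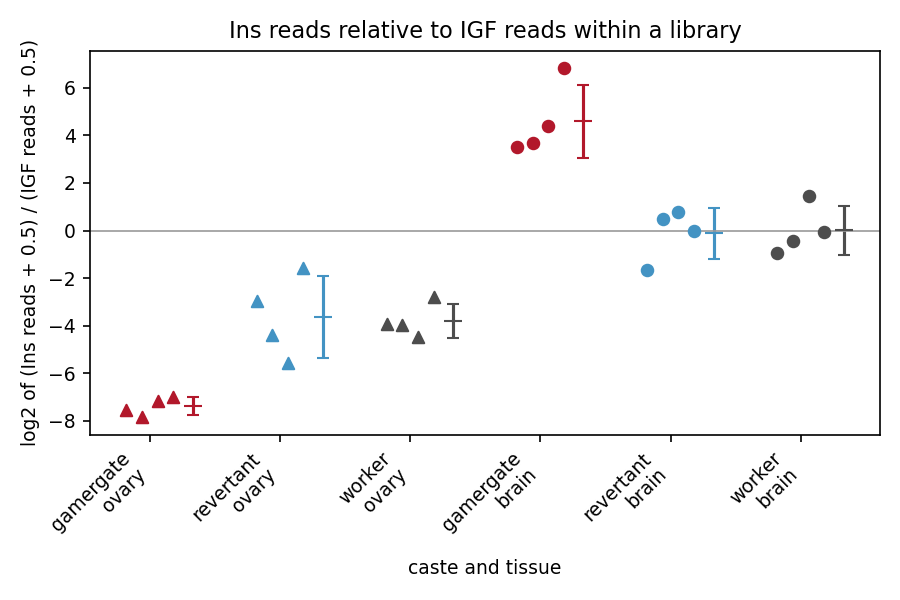
Log2 ratio of Ins reads to IGF reads in each of the 24 libraries, with 0.5 added to both counts, by caste and tissue, and the mean ± SD of 4 libraries beside each group. The line at 0 marks equal numbers. Gamergates lie lowest in the ovary, at −7.38 ± 0.38, and highest in the brain, at 4.60 ± 1.53. The highest gamergate brain had no IGF read, so the added 0.5 sets the size of its ratio.

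The proteins that meet the ligands were taken from the genes the study names, so their direction is not independent evidence. InR1 and InR2 are the receptors, and neither passed in the brain of gamergates over workers, with log2 fold changes of 0.20 (SE 0.21) and −0.26 (SE 0.23). Both fell in the gamergate ovary, by 1.20 and 1.68 on the log2 scale (adjusted p = 2.5e-04 and 1.2e-04 in the quasi-likelihood test). Imp-L2, which binds insulin-like peptides in Drosophila, had the same directions as IGF: it fell in gamergate brains by 1.30 (SE 0.16, adjusted p = 0.00552 in the quasi-likelihood test) and was 2.23 higher in gamergate ovaries (SE 0.28, adjusted p = 2.5e-04). Its level was 5.74 ± 0.23 log2 CPM in gamergate ovaries and 3.43 ± 0.53 in worker ovaries, and 4.56 ± 0.17 in gamergate brains and 5.82 ± 0.19 in worker brains (SD, n = 4 each). Its interaction between the tissues was 3.62 (SE 0.36, adjusted p = 8.6e-07). ALS rose in the ovary by 4.43 (SE 0.30, adjusted p = 2.2e-05) and was at 0.12 in the brain (SE 0.28, adjusted p = 0.859), with an interaction of 4.38 (SE 0.38, adjusted p = 1.1e-07). The receptors' reads could be split by sequence they share, since the program that counted reads is not named.

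Inside the cell, 21 genes of the cascade were measured and all were tested in both tissues. In the brain 0 of 21 passed for gamergates over workers in edgeR and 0 in DESeq2, beside 1.05% of all genes in edgeR. An unadjusted p under 0.05 in edgeR was found for 5 of 21, beside 1576 of all 8481 genes. The median log2 fold change of the 21 was −0.051 beside −0.0043 over all genes tested. In the ovary 2 of 21 rose and 11 fell, with a median of −0.44 beside −0.0135 over all genes tested, and 13 of 21 is close to the 58.3% of all genes that passed. The genes that rose were Thor, the translation repressor 4E-BP (log2 fold change 0.84), and the kinase Akt (0.65). Those that fell with the smallest p were Raf, the kinase upstream of MEK (−1.27), Pi3K21B, the regulatory subunit of PI3K (−1.15), the PI3K catalytic subunit Pi3K92E (−0.54) and Tsc1, part of the complex that restrains TOR (−0.44).

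**Figure D5:**
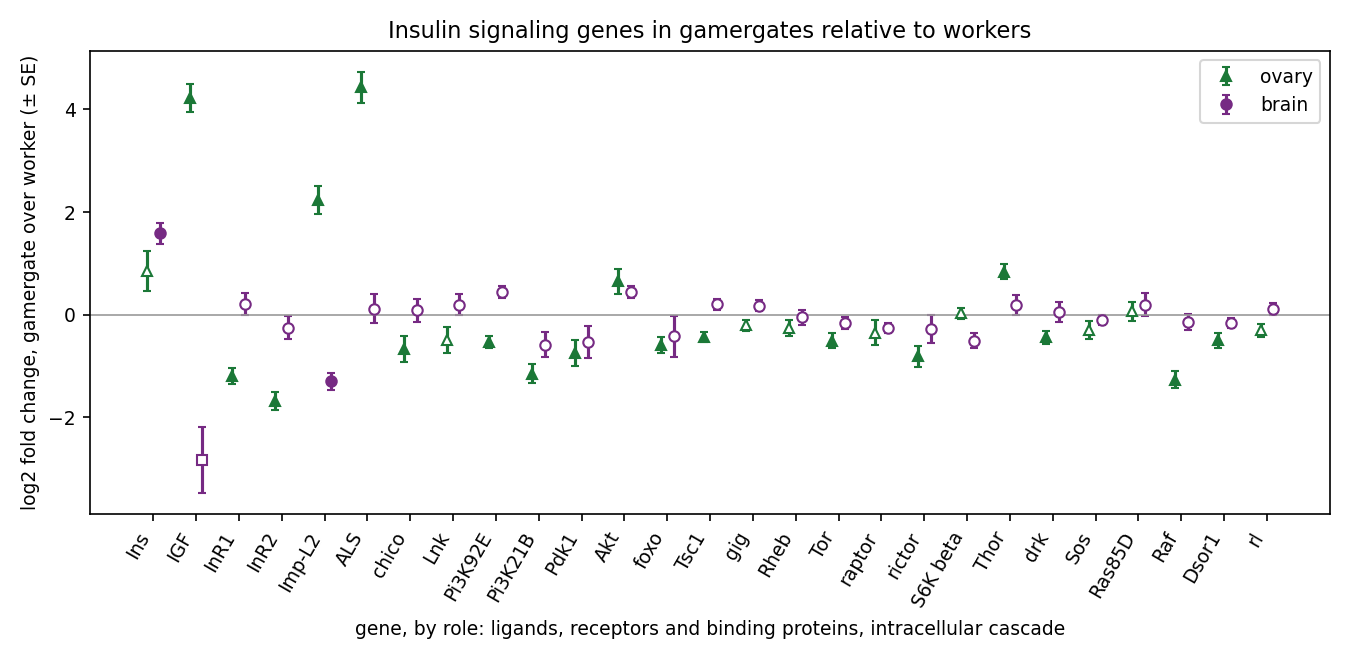
Log2 fold change ± standard error of gamergates over workers for the ligands, receptors, binding proteins and intracellular cascade, with ovary as triangles and brain as circles, each gene on its own place along the axis. Filled marks passed an adjusted p of 0.05, open ones did not, and the open square is IGF in the brain from the fit without a filter on low counts. IGF and Imp-L2 lie above 0 in the ovary and below 0 in the brain.

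Peptide hormones other than the insulins were read beside Ins. Of 23 neuropeptide precursors and processing enzymes, 21 were tested in gamergates over workers, where 0 rose and 2 fell in edgeR, beside 1.05% of all genes, with a median log2 fold change of −0.58 beside −0.0043 over all genes tested. DESeq2 called 5, but it also called more of all genes than edgeR did. In edgeR 12 of the 21 had an unadjusted p under 0.05, beside 1576 of all 8481 genes. Relative to revertants 0 of 22 rose and 17 fell in edgeR, beside 57.4% of all genes, with a median of −0.87. DESeq2 called 17, and 19 had an unadjusted p under 0.05 in edgeR, beside 5601 of all 8987 genes. Those that fell relative to workers were Crz, the precursor of corazonin (−2.92), and a carboxypeptidase listed as carboxypeptidase M (−1.35). In the ovary of gamergates over workers 12 of the 23 were tested, of which 5 rose and 3 fell, near the 58.3% of all genes that passed. On the log2 scale, Dsk, the precursor of drosulfakinin, rose by 6.72, the diuretic hormone Dh44 by 3.71, the myosuppressin precursor Ms by 1.35, and carboxypeptidase M, which fell in the brain, by 1.26. Of the enzymes and helpers that process prohormones, 7B2 fell by 3.50, the carboxypeptidase svr by 0.76 and the convertase amon by 1.94.

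The genes whose pattern was most like that of the ligands were ranked by Pearson's r of log2 CPM over 12 libraries of a tissue, as a description, since castes and library sizes form clusters among them. For Ins in the brain, among 8836 genes, these were LOC105190089 (r = 0.92), LOC105181473 (0.91), tapas (0.89), Hex70a (0.85) and nsl1 (0.85). In Drosophila, tapas encodes a Tudor domain protein of the germline and nsl1 a subunit of a chromatin complex, and Hex70a is the storage protein named above. Only 2 genes had an r over 0.9 with Ins. For IGF in the ovary, among 8383 genes, 1012 had an r over 0.9, and the 5 highest had r of 0.989 to 0.990. They included DNApol-eta, a DNA polymerase that copies past damaged bases, and LOC105180674, LOC105187662, LOC105185404 and LOC105189997. At this closeness, few genes shared the pattern of Ins in the brain and many that of IGF in the ovary. The 2 counts are not alike in depth or in size of change. Ins had 14 to 311 reads per brain library and IGF 13 to 6761 per ovary library. Pooled over reads, gamergates had 3.12 times the Ins of workers in the brain and 15.2 times the IGF in the ovary.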

How the data were processed

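The authors made polyA-selected, strand-specific libraries from single ants, trimmed reads with Trimmomatic, aligned them with STAR 2.5.3a per the labels, and deposited unnormalized counts of reads per gene for brain and ovary. The counting program, its use of strand and its handling of shared reads are not given in the sources used here. Of 36 libraries, the 12 of the fat body were not analysed here. All 24 value columns were matched to labelled libraries, and 0 were left over. No library pair was a copy, with a chi-square per degree of freedom of at least 2.60 within groups.

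From the deposited counts, castes were compared in pairs within a tissue and tissues in one joint fit of 6 groups, with edgeR 4.0.16 in R 4.3.3 (TMM, filterByExpr, quasi-likelihood test, Benjamini-Hochberg adjustment over all genes, threshold 0.05). Standard errors came from the fold change and its F statistic. For single values exact permutation was used, two-sided, which with 4 against 4 libraries cannot give a p below 0.0286. The method was tested on simulated data with the same spread beyond counting error for all genes, changing only genes above a limit of mean reads. That does not show how it performs at counts as low as those of IGF in gamergate brains or Ins in the ovary. Total counts of 1339043 to 23882325 per library limited precision, and 3 reads were taken as the floor. Within a caste and tissue, separate libraries are separate ants. Brain and ovary libraries of a caste may share ants. The joint fit and the permutation tests between tissues treated them as unpaired. Named genes were the ligands, InR1, InR2, Imp-L2 and ALS, up to 4 called genes per list and direction by smallest p (in gamergates over workers), cell type markers that passed in the brain, and the 5 genes most like each ligand among those with a mean of at least 2 log2 CPM. List members came from symbols in the RefSeq table, which matched 12632 of 12654 identifiers, and a few from protein names in the study's supplementary table. RefSeq gives the gene that the study calls InR1 the symbol InR-2 and the gene it calls ALS the symbol conv. The study's names are used here. One gene of the cascade list is not reported here. Members and lists were chosen with earlier results of these data known. Alternatives were other scalings, no filter, DESeq2 1.42.0, one fit of 3 castes, replicate block, library size class, thinning, other added counts in the ratio and each library left out. The fit of one size class and the caste contrasts within the joint fit were chosen after seeing the data.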

Additional observations from a re-analysis of the deposited data

Results flagged for a closer look

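The log2 fold change of IGF in gamergates over workers was 7.16 higher in the ovary than in the brain, and that over revertants was 7.42 higher. Both interactions passed the threshold in edgeR's quasi-likelihood test, and in each the gamergate value lay above the other caste in the ovary and below it in the brain. All 4 gamergate ovaries and all 4 gamergate brains showed these directions. Both interactions share the gamergate libraries.

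Among 18 groups of 4 libraries checked for a value far from the others, 1 stood out. In the worker brains, library 2 had an Ins level of 3.17 log2 CPM, and the other 3 had 3.76, 3.82 and 3.88, so that its gap took 0.829 of the range, at the critical value of 0.829. Chance alone gives about 1 such group in 20. That library had 14 Ins reads, with a 95% interval of 5.04 to 15.5 CPM that contains the value of each of the other 3 workers.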

How the results depend on the processing

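Of 629 values of Ins, IGF and their ratio under alternatives, 611 were classed as unchanged, but this class let some uncalled values change sign. Leaving out a library did so in revertants over workers. There the log2 ratio spanned −0.43 to 0.40 for brains and −0.53 to 0.80 for ovaries. The Ins difference in the ovary spanned −0.064 to 0.47 log2 CPM. In the brain, library size class as a term ended the calls of Ins in gamergates over workers (1.79) and revertants (1.35) and of IGF over revertants (−3.09). That term rested on the worker brains alone. IGF over workers was not tested in the main fit and was counted here by its two-sided exact permutation p of 0.0286. IGF over workers missed the threshold with the size class term (−2.70), in the quasi-likelihood test without a filter (−2.84) and within the joint fit (−2.86). Other scalings, DESeq2, thinning and the block gave no value for it, because the filter on low counts removes it. The direction of uncalled IGF values turned between revertant and worker ovaries with the size class term (−0.13) and between revertant ovary and brain with library size only (0.10). With each library left out, IGF in revertants over workers ranged from −0.067 to 0.49 in the ovary, IGF in ovary over brain from −0.40 to 0.40 in revertants and from −0.15 to 0.76 in workers, the IGF interaction in revertants over workers from −0.84 to 0.22, and Ins in gamergate over worker ovaries from 0.64 to 1.11.

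Brains and ovaries of one number had correlated deviations over 0.1 in 6 of 12 pairs, and the ovary of its number was the brain's best match in 8 of 12. Among them were all 4 revertant pairs (0.136 to 0.270, each the best match). This is a weak hint that the numbers pair revertant tissues, since ovaries of different ants reached higher values. Gamergate pairs were all under 0.1, yet for gamergates 1, 3 and 4 the ovary of the same number was also the best match. For gamergate 2 it was not, and among workers it was so for worker 3 only. Castes correlated over 0.1 in 2 of 12 brain and 4 of 12 ovary pairs, with 1 and 2 best matches. Revertant and worker ovaries of the same number, which are different ants, had 0.271, −0.197, 0.507 and 0.398 for numbers 1 to 4. Correlations of this size thus also arose without a shared ant. With the replicate block, Ins in gamergate over worker brains was 1.58, IGF in gamergate over worker ovaries 4.29, the IGF interaction 7.08 and ovary over brain in revertants −4.09 for Ins and −0.063 for IGF, and no call that could be fitted changed.

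The 89 genes called between gamergate and worker brains became 332 with DESeq2, 351 in one fit of 3 castes, 51 with the block, 244 with the size class term, 401 in one size class and 24 to 850 with a library left out. The 5157 between gamergate and revertant brains became 73 with that term and 2793 in the joint fit. The 0 between revertants and workers became 1 to 58 in the brain and 29 to 63 in the ovary under settings that called any, apart from 1 or 2 genes with a library left out. Depth limits Ins in the ovary, with 1 to 47 reads per library, and IGF in gamergate brains, with 0 to 6.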
